A study of Mus musculus with 6 samples.

Results

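Heat shock chaperones were examined as a list of 10 named genes: Hspb1, Cryab, Bag3, Hspa4l, Hsph1, Dnajb1, Hspd1, Hspe1, Hsp90aa1 and Hsf1. The list used no measured value, but it was chosen with earlier results of these data known. Of the 10, 9 had a probe set naming that gene only, out of 22180 such genes, while Hsf1, to which no such probe set could be matched, was not analysed here. The cells were neurospheres, suspended balls of dividing neural stem cells and their progeny, made from the subventricular zone of CD1 mice, an outbred stock, aged 2 months. The mothers of 3 animals had been injected with PBS during pregnancy and those of the other 3 with 0.5 mg/kg of MG, taken to be the methylglyoxal of the series title, with 2 injections a day from gestational day 12 until birth. All 6 cultures were grown for 7 days with EGF at 20 ng/ml and FGF2 at 10 ng/ml, and each gave 1 Affymetrix Mouse Gene 2.0 ST array. The labels record injections of the mothers only, and they call the cultures primary in the titles and secondary in the descriptions. Neither sex nor litter is given there, so a difference between litters cannot be told apart from the injections, and the p-values measure the spread between these cultures.

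Chaperones bind unfolded proteins and keep them from clumping until they fold or are degraded. Small heat shock proteins hold the unfolded chains, HSP70 folds them with the help of J-domain proteins and nucleotide exchange factors, HSP90 completes the folding of many kinases and receptors, and the HSP60 and HSP10 chaperonin does this work inside mitochondria. After heat or other damage to proteins, the transcription factor HSF1 forms trimers and binds heat shock elements, alternating repeats of GAA and TTC, in the promoters of the inducible genes. Methylglyoxal, which glycolysis gives off, is reactive and modifies proteins, small heat shock proteins among them. The comparison of MG with PBS shows how the chaperone genes stood in adult cells from the offspring of injected mothers.

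Of the 9 measured genes, 6 had lower and 3 had higher means after MG, where 46.2% of all genes had lower means, and none passed the test after adjustment. Hspe1, which encodes the mitochondrial co-chaperonin HSP10, had the largest difference, with a mean 1.63-fold lower in MG. Its gene partner Hspd1, which encodes HSP60, differed 1.06-fold. Cryab had a mean 1.20-fold higher, and for Bag3, Hspb1, Dnajb1, Hspa4l, Hsph1 and Hsp90aa1 the groups lay within 1.08-fold of each other. With limma's moderated test and Benjamini-Hochberg adjustment over all 22180 genes, the adjusted p of every member was 0.9998. The test called 0% of all genes at an adjusted p under 0.05, and 712 genes, 3.21%, had an unadjusted p under 0.05. The ordinary linear model without moderation called 0 genes after adjustment, too, and also gave 712 at the unadjusted level. Among the members, Hspe1 alone had an unadjusted p under 0.05 in limma, with a lower mean in MG, as 1.4% of all genes did. In the ordinary linear model its unadjusted p was 0.0693, and no member was under 0.05. The groups did not overlap in 2 of the 9, Hspd1 and Hsp90aa1, against 7.34% of all genes. The median log2 difference of the 9 was -0.07, and that of all genes was 0.01. The members' median was -0.04 with quantile normalisation and -0.03 with each array centred on its median. The median of all genes was 0.02 and 0.05 in these settings, so it moved up as well.

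**Figure D1:**
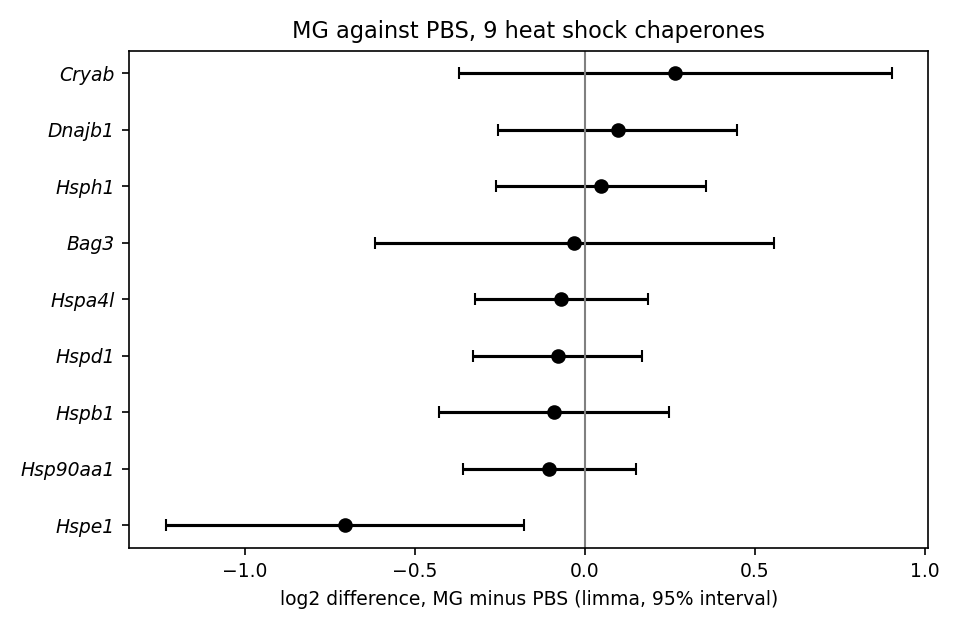
Log2 difference between MG and PBS (horizontal axis, MG minus PBS) for the 9 measured heat shock chaperones, with 95% confidence intervals from limma, 3 arrays against 3. The interval contains 0 for 8 genes, and that of Hspe1 runs from -1.23 to -0.18 before any correction for the number of genes tested.

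The array values are on a log2 scale, on which 1 unit is a doubling. To judge whether a gene was measurable, a reference level of 5.025 was used, below which 95% of 1390 odorant and pheromone receptor genes lay on average. The means of 8 members lay above it in both groups. Hspb1 lay at it. Levels of different genes are not compared, because each probe set has its own response. The stem cell markers Nes (means of 10.72 in PBS and 10.66 in MG) and Sox2 (11.16 and 11.15) were bright, while of 3 microglial markers Aif1 did not reach the reference level and Cx3cr1 (5.94 and 5.84) and P2ry12 (5.25 and 5.41) lay slightly over it. PBS replicate 3 and MG replicate 3 stood apart from the other arrays over all genes, with scores of 21.1 and 37.6 on a first principal component that held 44.1% of the variance, while the other 4 scored between -21.3 and -9.86. Member values that rest on these arrays are given with and without them.

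Hspe1 and Hspd1 encode the lid and the barrel of the mitochondrial chaperonin and lie head to head in the genome, transcribed away from each other. In the RefSeq promoter table (GRCm38.p6), the Hspe1 start at 55088148 on chromosome 1 and 1 of the 2 listed Hspd1 starts, at 55087932, are 216 bases apart. The stretch between them is shown because it matches the heat shock element pattern and lies upstream of both starts. It is given for each gene on its own strand, 5′ to 3′, with the repeats of GAA and TTC spaced by any pair of bases in capitals.
Hspe1, chr1:55088038-55088097, plus strand: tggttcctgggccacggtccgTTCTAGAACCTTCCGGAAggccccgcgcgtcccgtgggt
Hspd1, chr1:55088038-55088097, minus strand: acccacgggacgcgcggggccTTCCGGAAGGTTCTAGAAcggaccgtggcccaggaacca
The capitals begin 89 bases before the Hspe1 start and 144 bases before the Hspd1 start. They hold 4 alternating units, read in either direction.

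Hspe1 measured 8.04, 7.92 and 7.18 in PBS replicates 1, 2 and 3, and 6.98, 6.86 and 7.18 in the MG replicates. The first 2 PBS cultures were high, and PBS replicate 3 was as low as the MG cultures, so the groups overlapped only through the arrays numbered 3, which differed by 0.005. The means were 7.71 ± 0.47 (SD, n = 3) and 7.01 ± 0.16 (SD, n = 3), and the log2 difference was -0.71 (standard error 0.23, unadjusted p = 0.0148, adjusted p = 0.9998 in limma). This difference was larger than that of 99.7% of all genes tested. It was larger than the SD of either group, but PBS replicate 3 had the value of an MG culture. Without PBS replicate 3 the log2 difference was -0.98 (unadjusted p = 0.000339, adjusted p = 0.9996), and without both arrays numbered 3 it was -1.06 (unadjusted p = 0.000145, adjusted p = 0.781), both in limma. Without PBS replicate 1 it was -0.54 (unadjusted p = 0.0557), and without PBS replicate 2 it was -0.60 (unadjusted p = 0.0524). Leaving out MG replicates 1, 2 and 3 in turn gave -0.69, -0.63 and -0.79 (unadjusted p = 0.0388, 0.0537 and 0.0157), again in limma.

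Hspd1 measured 10.77, 10.76 and 10.72 in PBS, and 10.71, 10.60 and 10.70 in MG. All 3 MG values lay under the lowest PBS value, but the whole range over the 6 arrays was 0.17 log2 units, narrower than that of all but 3.13% of genes. The log2 difference was -0.08 (standard error 0.11), with a 95% interval from -0.33 to 0.17. The shifts of the 2 genes were then compared with each other. The value of Hspe1 minus that of Hspd1 on the same array was lower by 0.63 in MG on average, with an SD of 0.44 among the PBS arrays and 0.13 among the MG arrays (n = 3 each). An exact two-sided permutation test gave p = 0.2, where 0.1 is the smallest that 3 arrays against 3 allow. Without both arrays numbered 3 it was lower by 0.96, and the exact permutation test on 2 arrays against 2 cannot give a p under 0.333, the value it gave. Hspe1 has 7 named copies in the RefSeq gene table and Hspd1 has 5, most of them pseudogenes by name. None of these copies had a probe set of its own here, and a transcript from a closely similar copy could add to the signal, so the values of both genes are uncertain to that extent.

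**Figure D2:**
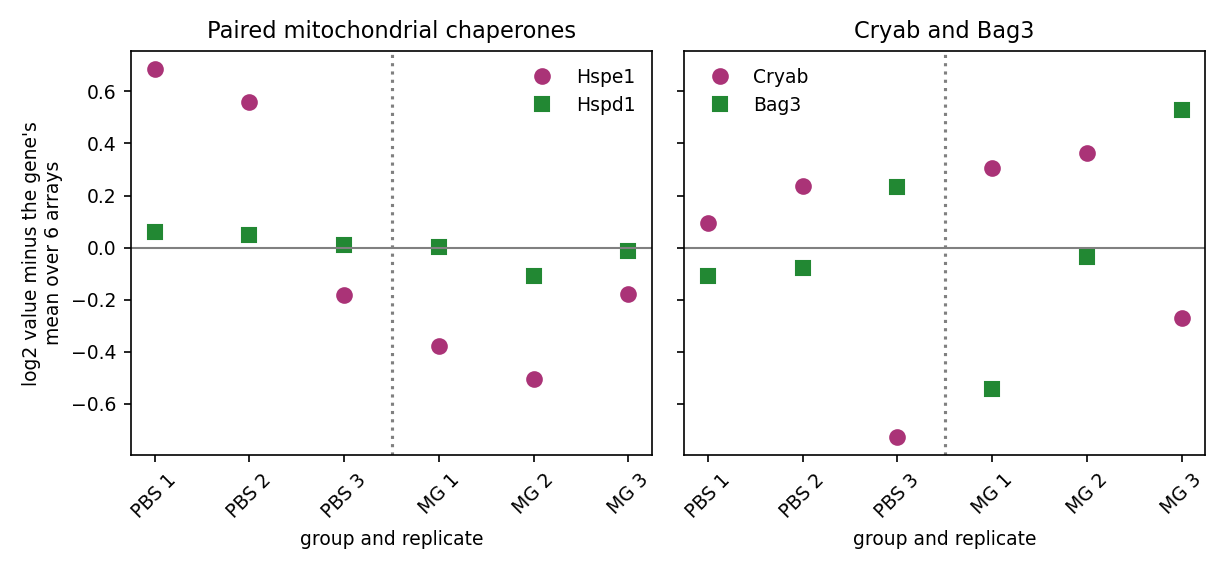
Log2 value of each gene on each array after subtracting that gene's mean over the 6 arrays (vertical axis), for the paired mitochondrial genes (left) and for Cryab and Bag3 (right); the dotted line separates PBS from MG. Hspe1 is high in PBS replicates 1 and 2 only, Hspd1 lies no more than 0.11 from its mean, and on the arrays numbered 3 Cryab is low and Bag3 is high in both groups.

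Cryab encodes alpha-B-crystallin, a small heat shock protein that astrocytes and oligodendrocytes also make without stress. It measured 8.88, 9.03 and 8.06 in PBS and 9.10, 9.15 and 8.52 in MG. The arrays numbered 3 were the lowest of their groups, and both lay below all 4 other arrays, by a mean of 0.75. MG replicates 1 and 2 were above the highest PBS value, and the groups overlapped through MG replicate 3. The means were 8.66 ± 0.52 (SD, n = 3) and 8.92 ± 0.35 (SD, n = 3), and the log2 difference of 0.27 had a standard error of 0.28. It was 0.17 without both arrays numbered 3 and -0.03 without PBS replicate 3 alone. A second Cryab probe set, dimmer, gave 6.05, 6.19 and 5.49 in PBS and 6.45, 6.26 and 5.81 in MG. It put the arrays numbered 3 lowest too, with a log2 difference of 0.26. Marker genes of other cell types also differed on the arrays numbered 3. All 4 astrocyte markers (Gfap, Aqp4, Slc1a3 and Aldh1l1) were above the reference level and had higher means in MG. Aqp4 and Aldh1l1 were lowest on the array numbered 3 in each group, whereas Gfap was lowest on PBS replicate 1 among the PBS arrays and Slc1a3 on MG replicate 1 among the MG arrays. The mean of the 4, each gene relative to its own average over the arrays, ranged from -0.38 to 0.22 in PBS and from -0.51 to 0.45 in MG, with the lowest value of each group on the array numbered 3. The pericyte and smooth muscle markers Pdgfrb and Acta2 had their lowest mean of each group there too, -0.55 and -0.14. So did the markers of stem cells (-0.09 and -0.12), the oligodendrocyte lineage (-0.03 and -0.23) and endothelium (-0.002 and -0.25). Those of neuroblasts and neurons did so in MG only, the ependymal marker in PBS only, and the microglial markers in neither group. Among the stem cell markers Nes, Sox2, Prom1, Vim and Fabp7, Prom1 alone was lowest there in both groups. Acta2 was lowest there in each group, at 9.92, 10.41 and 8.83 in PBS and 10.38, 10.82 and 10.23 in MG. Pdgfrb, near the reference level, was highest there in PBS (5.06, 5.17 and 5.25) and lowest there in MG (5.13, 5.19 and 4.66). Pdgfra, of the oligodendrocyte lineage, and Dcx, of neuroblasts, were likewise lowest on the arrays numbered 3 in both groups. Other markers of these lineages differed from them. Olig2 and Rbfox3 were highest on the arrays numbered 3 in both groups, and Mbp, Mog and Tubb3 were neither lowest nor highest there in both. The part of these markers in the Cryab values was not tested.

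Bag3 encodes a co-chaperone that links HSP70 to small heat shock proteins and steers damaged proteins to autophagy. It measured 8.84, 8.87 and 9.18 in PBS and 8.40, 8.91 and 9.48 in MG. It ran opposite to Cryab, with the arrays numbered 3 above all 4 others, by a mean of 0.57. Over all genes, 15.7% had both arrays numbered 3 above the other 4 and 15.7% had both below, so 1 of 9 members in each direction is no larger a share. MG held both the lowest and the highest Bag3 value, and the means of 8.96 ± 0.19 (SD, n = 3) and 8.93 ± 0.54 (SD, n = 3) were close. The log2 difference of -0.03 (standard error 0.25) changed sign when single arrays were left out, to 0.23 without MG replicate 1 and 0.08 without PBS replicate 3. It was -0.20 without both arrays numbered 3, and 0.01 when each array was centred on its median.

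Hspb1 encodes HSP27, the stress-inducible small heat shock protein. It measured 5.06, 4.83 and 5.21 in PBS and 4.96, 5.10 and 4.77 in MG, on both sides of the reference level. A second probe set for the gene lay between 4.39 and 4.804, below that level on every array. Means of the first were 5.03 ± 0.19 (SD, n = 3) and 4.94 ± 0.17 (SD, n = 3), and the log2 difference was -0.09 with a 95% interval from -0.43 to 0.25. The sources used here do not say which of the 2 reports the gene, so the values of the first may not be those of Hspb1. At this brightness a change in either could not be told from background. Its promoter window is shown because it carries 2 separate pairs of units rather than a run, in capitals.
Hspb1, chr5:135887789-135887848, plus strand, GRCm38.p6: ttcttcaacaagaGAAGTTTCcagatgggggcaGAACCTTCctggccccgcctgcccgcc

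**Figure D3:**
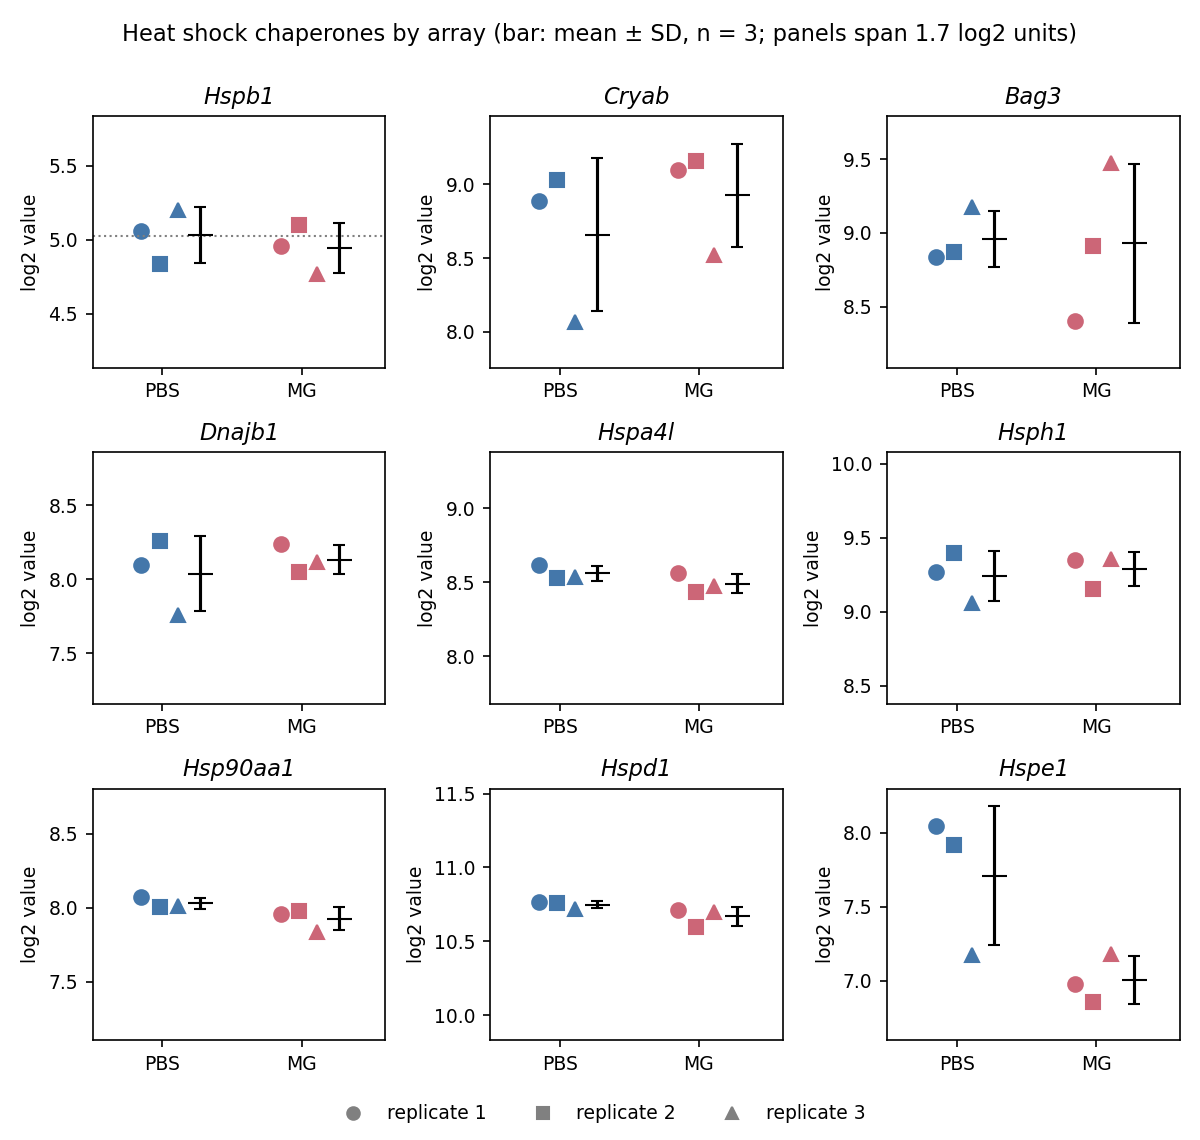
Log2 value on each array (vertical axis) for the 9 measured chaperone genes in PBS (blue) and MG (red); marker shapes give the replicate number, black bars the mean ± SD (n = 3), and the dotted line in the Hspb1 panel is the reference level. Every panel spans the same height, so the narrow spread of Hspd1, Hspa4l and Hsp90aa1 can be set beside the wide spread of Cryab, Bag3 and Hspe1.

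Dnajb1 encodes the J-domain protein HSP40, which delivers unfolded clients to HSP70. It measured 8.10, 8.26 and 7.76 in PBS and 8.24, 8.05 and 8.12 in MG. PBS replicate 3 was the lowest and the other 5 arrays lay within 0.21 of each other. The log2 difference was 0.10 with a 95% interval from -0.26 to 0.45, and it was -0.04 without PBS replicate 3. Hsph1, an HSP110 that resets HSP70 by nucleotide exchange, had 9.27, 9.40 and 9.06 in PBS and 9.35, 9.16 and 9.36 in MG. The highest and the lowest value were both in PBS. Its log2 difference was 0.05, with a 95% interval from -0.26 to 0.36, and -0.04 without PBS replicate 3. Hspa4l, a second member of the HSP110 family, had 8.62, 8.53 and 8.53 in PBS and 8.56, 8.44 and 8.47 in MG. MG replicates 2 and 3 lay under the lowest PBS value by less than 0.1, and the log2 difference was -0.07 with a 95% interval from -0.32 to 0.18.

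Hsp90aa1 encodes the inducible form of cytosolic HSP90. It measured 8.07, 8.004 and 8.01 in PBS and 7.96, 7.98 and 7.84 in MG. The groups did not overlap, with 0.03 log2 units between the lowest PBS and the highest MG value. Means were 8.03 ± 0.04 (SD, n = 3) and 7.93 ± 0.08 (SD, n = 3), a log2 difference of -0.10 with a 95% interval from -0.36 to 0.15 and an unadjusted p of 0.373 in limma. The MG mean was lower by more than either SD, yet limma's standard error of 0.11, which borrows spread from other genes, was as large as the difference. Hsp90aa1, Hspd1 and Hspa4l spanned less than 0.25 log2 units over the 6 arrays, against a median range of 0.49 over all genes. Cryab, Bag3 and Hspe1 spanned more than 1 unit, wider than 94.4%, 94.0% and 96.1% of genes.

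Heat shock elements were looked for in the RefSeq windows from 250 bases before to 50 after each start. The patterns searched were pairs of units, GAANNTTC and TTCNNGAA, and runs of 3, GAANNTTCNNGAA and TTCNNGAANNTTC, which cover both strands and overlap one another. Windows were listed for 7 of the 10 members, all but Cryab, Hsp90aa1 and Hsf1. A pair was present in 5 of the 7 (Hspb1, Bag3, Hsph1, Hspd1 and Hspe1), against 17% of the 27025 genes in the table. A run of 3 was present in Hsph1, Hspd1 and Hspe1, against 0.662% of genes. Hspd1 and Hspe1 enter both counts through the same stretch, read on opposite strands. The window of the other listed Hspd1 start held no pair and no run. In Hsph1 the run was TTCTGGAAAGTTC, 16 or 37 bases into the transcript, depending on which of its 2 listed starts is taken. Neither a pair nor a run was found in the windows of Hspa4l or Dnajb1. These matches describe the letters only. The 3 genes with a run included the widest and the narrowest ranges among the members, 1.19 for Hspe1, 0.34 for Hsph1 and 0.17 for Hspd1.

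The wider chaperone network was described with 9 lists that held 92 further genes, of which 86 were measured. Of these, 36 had higher and 50 lower means after MG, 58.1% lower against 46.2% of all genes, and the median log2 difference was -0.02. None passed after adjustment and 1, Hspa1a, had an unadjusted p under 0.05. MG lay wholly below PBS in 5 of the 86 genes (3.31% of all genes did) and wholly above in 1 (4.03% of all genes). With each array centred on its median, the median difference of the 86 was 0.03 and that of all genes 0.05. The median of the 86 was also above 0 without MG replicate 2, at 0.0063. Its sign thus rests on the scaling and on single arrays.

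Hspa1a and Hspa1b encode the classical stress-inducible HSP70. Hspa1a measured 5.46, 5.04 and 5.20 in PBS and 5.08, 4.84 and 4.50 in MG, so that its mean exceeded the reference level in the PBS group alone. Its log2 difference was -0.43 (standard error 0.18, unadjusted p = 0.0446, adjusted p = 0.9998 in limma), and -0.29 without both arrays numbered 3. Hspa1b, in contrast, measured 5.79, 5.54 and 4.86 in PBS and 5.70, 5.75 and 4.998 in MG, with a log2 difference of 0.08 that was 0.06 without both arrays numbered 3 and -0.18 without PBS replicate 3 alone. Hspa1b was lowest on the arrays numbered 3 of both groups, while Hspa1a was lowest on that of MG and mid-range on that of PBS. The promoter windows of the 2 genes are identical at 296 of 300 bases, and the stretch with their pair of units, in capitals, is the same in both.
Hspa1a, chr17:34972227-34972286, minus strand, GRCm38.p6: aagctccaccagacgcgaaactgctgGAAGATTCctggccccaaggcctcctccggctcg
Hspa1b, chr17:34959309-34959368, minus strand, GRCm38.p6: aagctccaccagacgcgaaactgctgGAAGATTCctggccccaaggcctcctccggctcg
These genes are near-identical copies, so their values are uncertain.

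The remaining lists stood close to 0. Among the HSP70 and HSP110 families, 8 of 12 had lower means (median log2 difference -0.04, or -0.11 without MG replicate 1), and the other gene named, Hspa12b, had a log2 difference of -0.20. Small heat shock proteins had lower means in 5 of 8 (median -0.04), and without both arrays numbered 3 the median was 0.10. Hspb8, the small heat shock protein that works with Bag3, was the 1 further gene with MG wholly above PBS, at 6.13, 6.17 and 5.75 in PBS and 6.30, 6.24 and 6.27 in MG, a log2 difference of 0.25 with an adjusted p of 0.9998 in limma. Without both arrays numbered 3 it was 0.12. Hspb3, a muscle form, lay near the reference level (-0.33). J-domain proteins had lower means in 7 of 12 (median -0.03, or 0.01 with median centring), with Dnajc2 at -0.13 and Dnajb4 at -0.13. Genes of nucleotide exchange and BAG proteins were split, 4 higher and 4 lower (median 0.02), with Bag2 at 0.13 (-0.02 without PBS replicate 3) and Bag5 at 0.10 (-0.01 without MG replicate 3).

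HSP90 and its co-chaperones were split 7 and 7 (median -0.00027, or -0.05 without MG replicate 1), with Chordc1 at -0.17 and the cyclophilin gene Ppid at -0.12. Mitochondrial chaperones had lower means in 8 of 11, Hspe1 and Hspd1 included, with a median of -0.01. Clpp, a mitochondrial protease subunit, stood at 0.12, or at -0.02 without both arrays numbered 3, and Grpel1, the exchange factor of mitochondrial HSP70, at 0.13. The cytosolic chaperonin TRiC and prefoldin genes had lower means in 9 of 13 (median -0.03). Its subunit Cct8 was tightly grouped, at 11.44, 11.45 and 11.45 in PBS and 11.36, 11.31 and 11.33 in MG. The log2 difference of -0.11 was not called by limma (unadjusted p = 0.325). In the ordinary linear model without moderation, its unadjusted p was 0.00105 and its adjusted p 0.9999. Pfdn5 stood at 0.11. Chaperones of the endoplasmic reticulum had higher means in 8 of 11 (median 0.03), with Hyou1 at 0.17 and Dnajc3 at 0.13. Heat shock factors and their regulators had lower means in 5 of 6 (median -0.11), but 3 of the 6 did not reach the reference level in either group, and the median was -0.04 with those left out and also without both arrays numbered 3. Hsf2, which can pair with HSF1, averaged 9.08 ± 0.05 (SD, n = 3) in the PBS cultures and 8.93 ± 0.13 (SD, n = 3) in the MG cultures, which is a log2 difference of -0.15, and the HSF1-binding protein gene Hsbp1 at -0.04.

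**Figure D4:**
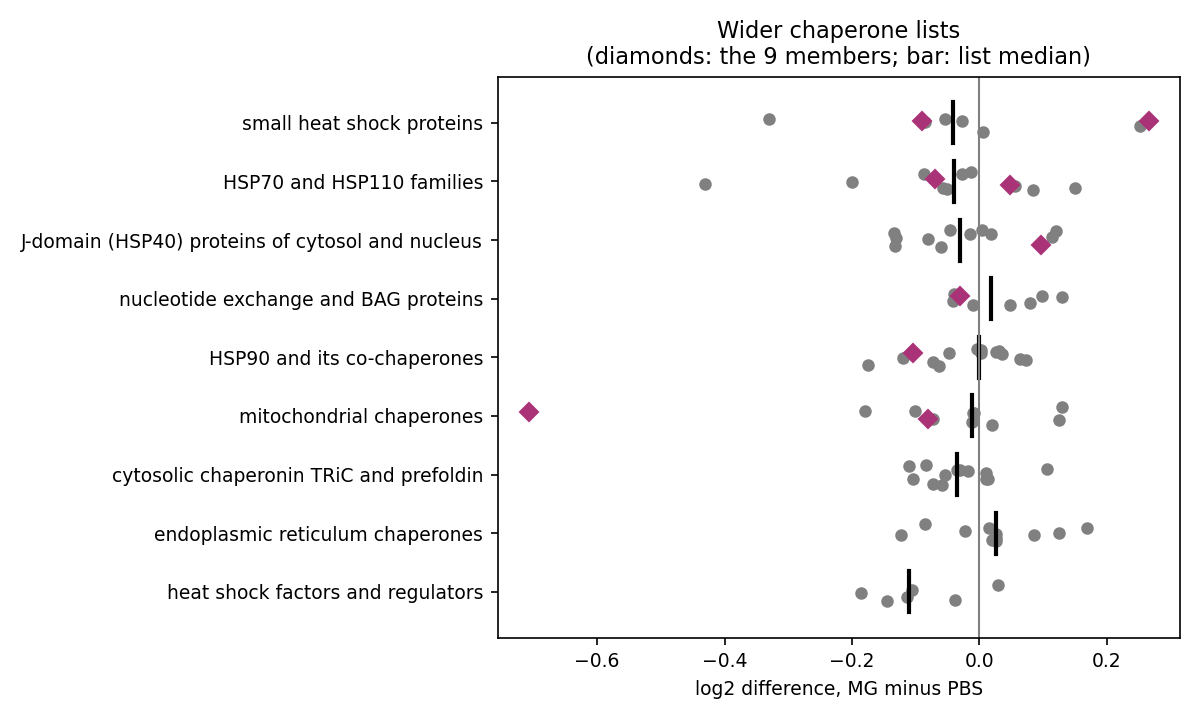
Log2 difference between MG and PBS (horizontal axis) for 95 chaperone genes in 9 lists (rows); grey circles are further genes, diamonds the 9 members, and the black bar is the median of the row. Of the 95 genes, 90 lie within 0.2 of 0, and Hspe1 (-0.71) and Hspa1a (-0.43) lie farthest to the left.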

How the data were processed

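Expression was measured on 6 arrays, 1 per animal, 3 PBS and 3 MG, grouped by sample title. The deposited values are on a log2 scale, inferred from their range of 0.73 to 13.8, and the array medians lay between 5.25 and 5.42. The authors used Partek 6.6, per the submitters' processing notes. Background correction, normalisation and genome build: not given in the sources used here. Probe sets were named through the platform annotation, with symbols updated through RefSeq (GRCm38.p6): 23521 of 41345 named 1 gene, 1814 several and 16010 none. A gene was represented by its probe set with the highest mean over the arrays.

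MG was compared with PBS in limma 3.58.1 (R 4.3.3; lmFit and eBayes, two-sided, no covariate), with Benjamini-Hochberg adjustment over 22180 genes and a threshold of 0.05. The fit was tested on simulated data. Figures used matplotlib 3.10.9. With 3 arrays a group, precision was limited, and the median standard error over all genes was 0.15.

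The members, the 9 lists and the tests were chosen with earlier results of these data known. Genes named were all members, per list the 2 further genes with the smallest unadjusted p among those above the reference level in a group, and the 3 nearest genes by profile for Hspb1, Dnajb1, Hsp90aa1 and Hspd1. Hspa1b was added after its values were seen. Alternatives tried were leaving out dim genes, averaged or separate probe sets, quantile normalisation, median centring, other moderation, the replicate number as a block, and arrays left out.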

Additional observations from a re-analysis of the deposited data

How the results depend on the processing

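No alternative gave a gene past the adjusted threshold among all genes tested. Of 135 member values under 15 alternatives, 126 had the same direction as reported and were not called, and 9 turned sign. Leaving out dim genes, separate probe sets, other moderation and the replicate block cannot change a gene's log2 difference. There the direction was fixed in advance, and averaging probe sets changes only genes with several. The counts of kept directions, here and for the further genes, therefore overstate how steady the values were. With arrays left out one at a time the log2 difference of Bag3 ran from -0.30 to 0.23, that of Cryab from -0.0313 to 0.47, that of Hsph1 from -0.0427 to 0.13 and that of Dnajb1 from -0.0425 to 0.21. Without both arrays numbered 3 it was 0.0844 for Hspb1, -0.0765 for Hsph1 and -0.0344 for Dnajb1, and with median centring it was 0.0107 for Bag3. Of 285 values of the further named genes, 276 kept the sign reported, none was called, and 9 turned sign. With arrays left out one at a time these ran from -0.023 to 0.2282 for Bag2, from -0.0112 to 0.1873 for Bag5, from -0.0733 to 0.0186 for Hsbp1 and from -0.1833 to 0.3261 for Hspa1b. Without both arrays numbered 3 the value was -0.008 for Bag2 and -0.0232 for Clpp, and with median centring it was 0.0034 for Hsbp1. Of 165 list medians under other settings, 11 moved by more than the spread between arrays. The cause was not tested. Hspe1 was lower in MG in all 15, from -1.06 to -0.54, with an unadjusted p under 0.05 in 11 of them. Several of these settings refit the same values of its only probe set, so the 11 are not separate checks. Its unadjusted p in limma was 0.0557 without PBS replicate 1, 0.0524 without PBS replicate 2 and 0.0537 without MG replicate 2. In the ordinary linear model without moderation it was 0.0693. The wider genes' median ran from -0.05 to 0.03. Same-numbered arrays of the groups deviated together with correlations over genes of 0.22, 0.04 and 0.45. Unlike-numbered arrays gave 0.26 and 0.23 between numbers 1 and 2, and from -0.37 to -0.21 between number 3 and the others. Arrays numbered 1 and 2 were thus no closer to their own number than to the other. Values were centred within each group first, so the arrays numbered 3 by themselves draw those numbered 1 and 2 together. The check therefore cannot exclude pairing. The design states no pairing, and the numbers were not taken to pair the cultures. With the replicate block the log2 difference of Hspe1 was -0.71 (adjusted p = 0.9992 in limma), and 1063 genes had an unadjusted p under 0.05 in place of 712.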

Other observations

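The genes whose values followed a member most closely over the 6 arrays were found by the root mean square difference between profiles, after each gene was centred on its own mean, among the 13704 genes whose means exceeded the reference level of 5.025 in each group. Nearest to Hspd1 were Pitpna (0.0147 log2 units), Ubxn8 and Ppp6r3, against a median of 0.166 over all genes compared. Nearest to Hsp90aa1 were Mob4 (0.0169), Cops2 and Ttc3, and nearest to Dnajb1 were Plin2 (0.0303), Dnajc18, another J-domain gene, and Cep19. Nearest to Hspb1 were Tbx6 (0.0273), Mb and Mir449b. With 6 arrays and so many genes, close profiles arise without any link, and steady genes lie near other steady genes by construction.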
